A study of Mus musculus with 6 samples.

Results

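The axon guidance genes are the semaphorins with their plexin and neuropilin receptors, the ephrins with their Eph receptors, the slits with their Robo receptors, and the netrins with their Unc5 receptors. Members were taken by gene symbol from the deposited expression table, and 69 of its 25683 genes matched. They comprise 20 semaphorins, 9 plexins, 2 neuropilins, 5 ephrin-A and 3 ephrin-B ligands, 9 EphA and 5 EphB receptors, 3 slits, 4 Robo receptors, 4 netrins and 5 genes with an Unc5 symbol. Of the last, Unc5cl carries a similar name but is not a netrin receptor, and it had 1 read over all libraries.

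RNA-seq libraries had been made from cultured mouse aortic cells, which the labels call vascular smooth muscle cells and a primary line. There were 3 libraries of Nt5e knock-out cells (KO 1, KO 2 and KO 3) and 3 of wild-type cells (WT 4, WT 5 and WT 6). Nt5e encodes CD73, the ecto-enzyme that makes adenosine from AMP. Both genotypes had been grown at 10% serum and then held at 0.5% serum for 48 h, which the labels describe as medium for smooth muscle differentiation. The labels do not say how the knock-out was made, nor do they tie a library to an animal or a culture of its own. Any p-value here is thus relative to the scatter of these 6 libraries, part of which may be technical.

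Guidance genes were named for steering growing axons, and the same ligands and receptors act in blood vessels. Secreted class 3 semaphorins signal through a neuropilin that binds the ligand and a plexin that carries the signal inward, while most membrane-bound semaphorins bind plexins directly. Ephrins sit on the membrane of the neighbouring cell and are bound by Eph receptor kinases, so that signals can run into both cells. Slits act through Robo receptors, and netrins through Dcc, neogenin or Unc5 receptors. In the vessel wall these systems are known for arterial and venous identity, for branching and for the contact between endothelial and mural cells.

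Libraries held 19919095 to 23669252 exon reads, of which the guidance genes took 0.417% to 0.459%. Nt5e, the targeted gene, had 22, 1 and 2 reads in KO 1, 2 and 3 and 615, 688 and 486 in WT 4, 5 and 6. The libraries were not equally spaced. The biological coefficient of variation over all genes was 3.66% between KO 2 and KO 3 and 3.49% between WT 4 and WT 6, against 14.97% and 15.73% between WT 5 and the other wild-type libraries. KO 1 differed from KO 2 and KO 3 by 44.6% and 45.1%, as far as from the wild type (43.7% to 48.0%). The nearly identical libraries carry different title stems, while KO 1 and KO 2 share a stem, as do WT 5 and WT 6. The ending of a title here means its last number before the S number and the shared suffix. That ending was 2 in the nearly identical libraries and 1 in KO 1 and WT 5. The p number of the titles was 11 in KO 1, WT 4 and WT 5 and 12 in KO 2, KO 3 and WT 6. Results are therefore also given without KO 1 and with the nearly identical libraries summed. Among 12 smooth muscle markers, 8 were expressed, and their summed level was 989 to 2550 CPM (exon reads scaled to a common library size) in the knock-out, against 940 to 1134 in the wild type. Acta2 had 1263 to 11583 reads and Tagln 362 to 510, whereas Cnn1 had 5 to 69, Actg2 at most 10, and Des and Myocd at most 4 in any library. Myh11 had 5, 54 and 67 reads in KO 1, 2 and 3 against 3, 3 and 1 and was not tested. Synpo2 had 261, 52 and 48 against 34, 26 and 37 and was not called (edgeR adjusted p = 0.0878). Both lay above the wild type in every knock-out library. In contrast, Smtn had 1431 to 2292 reads and Cald1 18304 to 38508 in every library, and Lmod1 and Myl9 lay between 68 and 843, so the contractile markers were detected unevenly. Of this list Smtn was called higher in the knock-out (log2 fold change 0.55, edgeR adjusted p = 0.0296) and Cnn1 lower (-2.45, edgeR adjusted p = 0.0246). Both calls were lost without some single libraries. Acta2 had 1705, 11583 and 9859 reads in KO 1, 2 and 3 against 1553, 1263 and 2180 and was not called. Cald1 made up most of the summed level, at 792, 1815 and 1766 CPM against 864, 778 and 887 CPM. The 12 mesothelial markers summed to 3556 to 3860 CPM in the wild type, to 950 in KO 1 and to 284 and 290.5 in KO 2 and KO 3.

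Of the 69 guidance genes, 53 were expressed, defined as 10 or more exon reads in at least 3 libraries, and 46 of them reached that depth in all 6. The 16 others had at most 45 reads in any library. Epha6, Epha8, Unc5d and Robo4, the endothelial member of its family, had no reads at all. Of 10 endothelial markers 2 were expressed, with Tie1 and Cldn5 at 0 and a summed level of 3.81 to 7.55 CPM in the knock-out against 1.67 to 2.59 CPM in the wild type. Kdr, a VEGF receptor of that list, had 47, 138 and 111 reads against 18, 8 and 10 (log2 fold change 3.17 ± 0.59, edgeR adjusted p = 0.0139), a call lost without WT 5 or WT 6. Expressed members included every ephrin and EphB receptor, 17 of 20 semaphorins and 8 of 9 plexins, but 1 of 4 Robo receptors and 5 of 9 EphA receptors. Levels between genes were compared by the authors' RPKM, which divides reads by exon length. Plxnb2, a plexin for class 4 semaphorins, was the most abundant, at a mean of 103 RPKM over the 6 libraries. It was followed by Slit3 at 93.5, the secreted class 3 semaphorin Sema3c at 58.2, the semaphorin co-receptor Nrp1 at 44.7 and Sema3d at 38.4. Unc5b, a netrin receptor, stood at 31.8 and Plxna1 at 28.1 RPKM. The ephrin Efnb2, an arterial marker in the embryo, stood at 25.2 RPKM, ahead of Sema6d at 20.5, Sema3f at 20.2, Efnb1 at 18.9 and the Efnb2 receptor Ephb4 at 15.5.

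**Figure D1:**
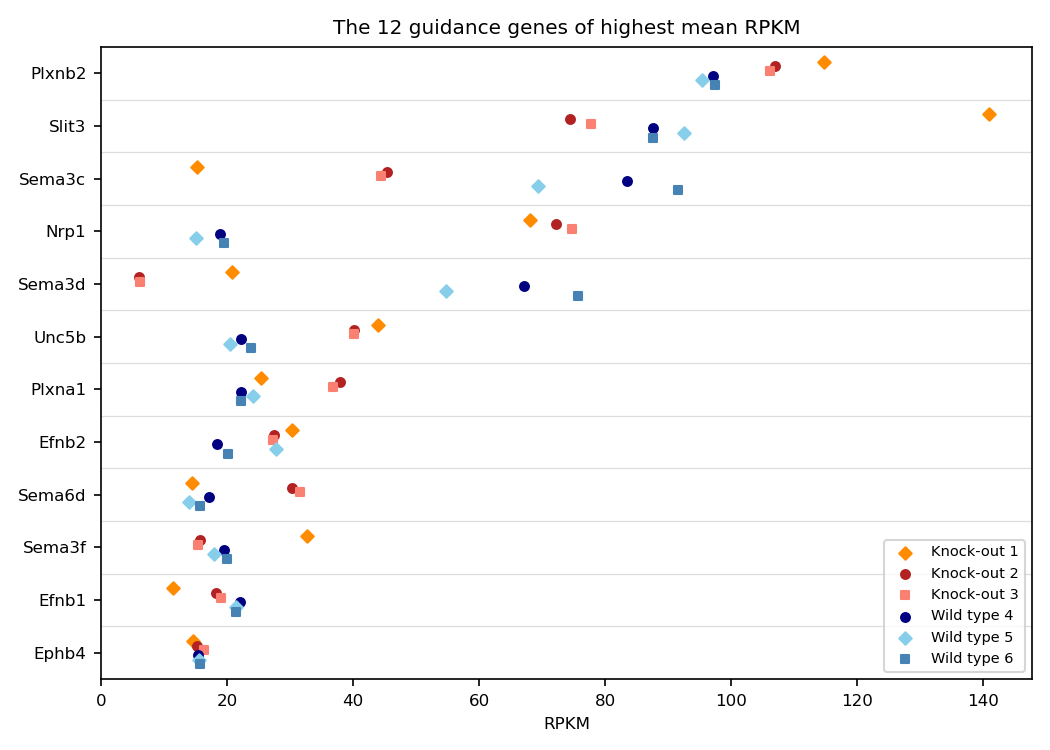
RPKM (linear axis) of the 12 most abundant guidance genes, with 1 point per library and colour and shape by library. Nrp1 and Unc5b lie to the right of the wild type in all 3 knock-out libraries and Sema3c and Sema3d to the left, while for Slit3 only KO 1 stands apart to the right.

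Between genotypes, 16 of the 52 tested guidance genes (30.8%) had an adjusted p under 0.05 (edgeR quasi-likelihood test over all genes, Benjamini-Hochberg), where 27.8% of all 12660 tested genes did. The share called was therefore near that of all genes. Higher in the knock-out were 6 receptors (Nrp1, Unc5b, Ephb1, Epha4, Plxna2 and Plxnb2), against 14.1% of all genes. Lower were 10 genes, against 13.7% of all genes, namely 6 semaphorins (Sema3d, Sema4b, Sema4c, Sema6a, Sema6b and Sema7a) and the receptors Plxna4, Plxnb1, Plxnb3 and Epha2. With libraries scaled by total counts 4 members were higher and 10 lower, and the share of calls that were higher moved from 50.7% to 40.1% over all genes. No ligand was called higher. Of the 30 tested ligands 6 were lower, and of the 22 tested receptors 6 were higher and 4 lower. Calls with a change of at least 2-fold numbered 9 of 52 (17.3%), against 11.3% of all genes. The median absolute log2 fold change was 0.63 for guidance genes and 0.34 for all genes, and the median signed change was 0.18 and 0.02.

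The genotypes did not overlap for any of the 16 genes. Over all tested members, 11 had every knock-out library above every wild-type library, where 24.3% of all genes did, and 16 had every knock-out library below, where 25.5% of all genes did. When each library was left out in turn, 8 of the 16 calls held every time, those of Nrp1, Unc5b, Plxna4, Plxnb1, Plxnb3, Sema4b, Sema6a and Sema7a. Without KO 1 all 16 held, and 41 of the 52 members were called, where 66.2% of all genes were. With KO 2 and KO 3 summed into 1 library, and likewise WT 4 and WT 6, 0 of 55 members were called by edgeR, where 0.13% of all genes were. In that fit the lowest adjusted p was 0.062 (Nrp1), and all 16 kept their sign. An unadjusted p under 0.05 was reached there by 14 members. The share of all genes at that unadjusted threshold was not determined, so the count of 14 has no background to be read against. With the last title number as a covariate all 16 held and 23 members were called, where 35.6% of all genes were. The 7 added there were Robo1 (edgeR adjusted p = 0.00633), Sema5a (0.00677), Ntn1 (0.0265), Sema3c (0.0294), Sema4d (0.0325), Efnb2 (0.0420) and Slit2 (0.0491). None of these was called in the main fit on all 6 libraries. Without the covariate, Efnb2 and Sema5a were called when WT 5 was left out, and the others when KO 1 was left out.

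**Figure D2:**
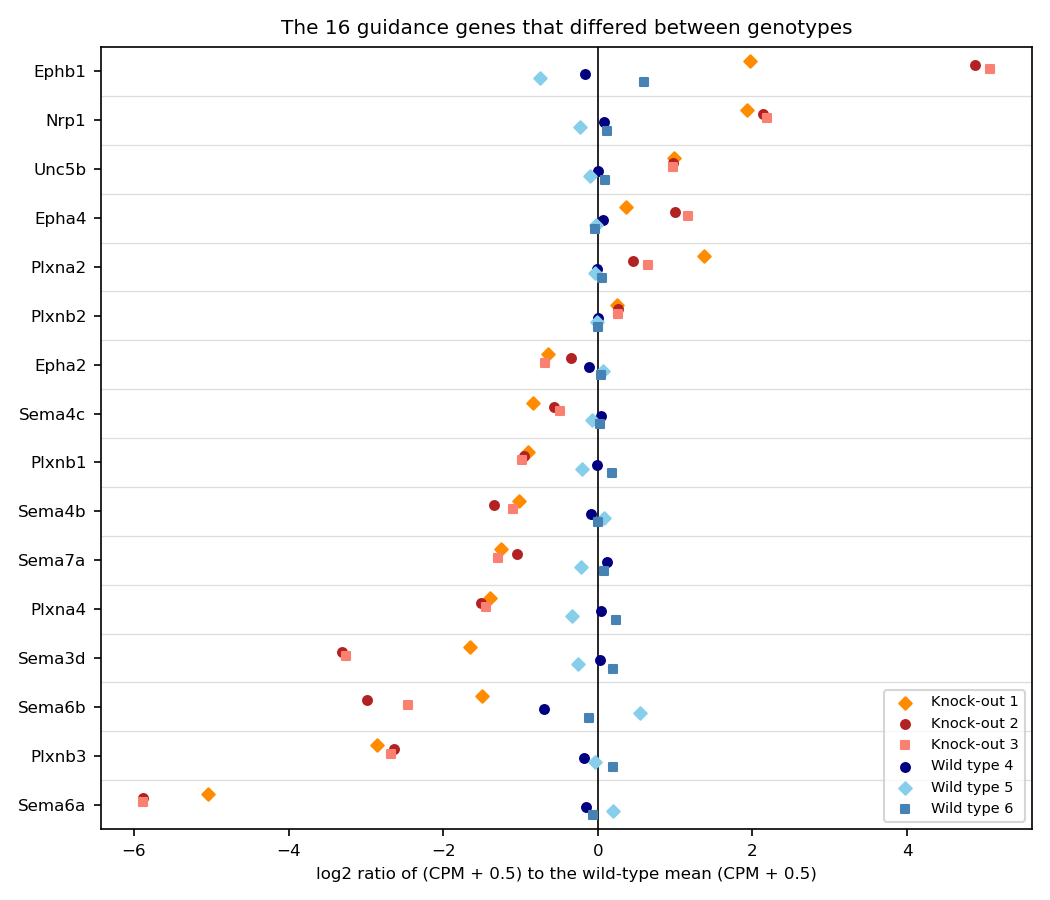
Log2 ratio of CPM to the wild-type mean (0.5 CPM added to each) for the 16 called guidance genes, 1 point per library. In every row the 3 knock-out points lie on 1 side of the 3 wild-type points. The order of the rows follows the fitted change, from Ephb1 (4.90) to Sema6a (-7.63).

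The genes Nrp1, Sema3d and Unc5b, called on both exon and intron reads, are shown with the bases that precede their start, because they are the called members on both readouts with a single RefSeq promoter and a window free of annotated exons. The sequences are the 250 bases before the annotated start, 5′ to 3′ on the gene's strand, from RefSeq on build GRCm38.p6. Capitals mark motif matches on either strand, namely the GC box (GGGCGG or CCGCCC) and the core of the cAMP response element (TGACG or CGTCA).
Nrp1, chr8:128358823-128359072, plus strand: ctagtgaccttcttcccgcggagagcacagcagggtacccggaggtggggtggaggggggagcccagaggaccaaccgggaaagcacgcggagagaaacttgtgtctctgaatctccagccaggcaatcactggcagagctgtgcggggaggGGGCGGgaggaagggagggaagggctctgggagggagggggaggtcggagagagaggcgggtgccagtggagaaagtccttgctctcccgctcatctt
Sema3d, chr5:12382916-12383165, plus strand: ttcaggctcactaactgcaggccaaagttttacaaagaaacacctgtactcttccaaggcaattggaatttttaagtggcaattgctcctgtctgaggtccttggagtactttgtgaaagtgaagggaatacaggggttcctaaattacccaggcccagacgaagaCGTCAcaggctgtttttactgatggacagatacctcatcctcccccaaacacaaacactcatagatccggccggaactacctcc
Unc5b, chr10:60831582-60831831, minus strand: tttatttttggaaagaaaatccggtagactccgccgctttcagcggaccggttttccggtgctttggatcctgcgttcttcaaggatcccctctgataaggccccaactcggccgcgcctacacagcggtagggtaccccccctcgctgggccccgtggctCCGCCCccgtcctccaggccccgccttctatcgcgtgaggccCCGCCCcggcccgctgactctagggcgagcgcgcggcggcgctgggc
The Nrp1 window lies inside the gene's span in the deposited table (128358604 to 128503363), whose start is further upstream, and holds no GENCODE exon. Unc5b had 27 CpG dinucleotides and 2 GC boxes, Nrp1 11 CpGs and 1 GC box, and Sema3d 4 CpGs, no GC box and 1 cAMP response element core. Windows of tested members had a median of 16 CpGs (quartiles 9 and 23, 59 windows), against 6 (quartiles 2 and 16) over all 32851 promoters. A GC box was present in 36 of 45 tested members with a window (80%) and in 32.7% of all promoters. A member counted if any of its windows matched, whereas all promoters were counted singly. The cAMP response element core was present in 6 of 45 (13.3%) and 17.8% of all promoters. The full element TGACGTCA, which contains that core, was present in 1 of 45 and 1.55% of all. Tested members had passed a read filter, and all promoters were taken without it. The shares and CpG medians are therefore not a comparison of like with like. These matches describe letters and not bound sites.

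The semaphorins, the largest family, had a lower summed level in the knock-out. It was 126, 137.5 and 140.7 RPKM in KO 1, 2 and 3, against 240.2, 221 and 259 RPKM in WT 4, 5 and 6, so the genotypes did not overlap. Of 17 tested semaphorins, 6 were called lower and none higher, where 13.7% and 14.1% of all genes were. In 9 every knock-out library lay below the wild type, where 25.5% of all genes did, and the median log2 fold change was -0.63. Sema3c and Sema3d together made up 56.1% to 64.5% of the wild-type sum and 28.6% to 37.4% of the knock-out sum. Without this pair the sums were 90.0, 86.1 and 90.1 RPKM in the knock-out, against 89.7, 97.0 and 92.0 RPKM in the wild type, and the genotypes then overlapped.

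Sema3d (chromosome 5, 12383385 to 12588948, plus strand) encodes a secreted ligand known from the patterning of veins. It was at 162, 51.0 and 52.8 CPM in KO 1, 2 and 3 and at 518, 427.5 and 584 CPM in WT 4, 5 and 6. All knock-out libraries were low, KO 1 the least so, and the log2 fold change was -2.52 ± 0.51 (SE, n = 3 against 3; edgeR adjusted p = 0.0176). The call was lost without any single library other than KO 1 (adjusted p up to 0.0674), and without KO 1 the change was -3.30. Sema3c (chromosome 5, 17574281 to 17730268, plus strand), known from the outflow tract of the heart, was at 87.8, 284.0 and 277 CPM against 478, 402 and 525 CPM. Here KO 1 was the lowest, and the change of -1.11 ± 0.44 did not pass the test on exon reads (edgeR adjusted p = 0.111), although the genotypes did not overlap. It passed without KO 1 (log2 fold change -0.75, adjusted p = 0.00118).

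Among the membrane-bound semaphorins, Sema6a (chromosome 18, 47235598 to 47368870, minus strand), a ligand of Plxna2 and Plxna4, had the largest fitted change of the 52 tested members. It had 582, 809 and 596 reads in WT 4, 5 and 6, 9 in KO 1 and none in KO 2 or KO 3. The fitted log2 fold change was -7.63 ± 0.84 (edgeR adjusted p = 0.00332). Counting 3 reads over KO 2 and KO 3 together as the floor, the gene was at least 386-fold lower there than the wild-type mean. The ratio of the wild-type mean to KO 1 was 74.3, on 9 reads (95% Poisson interval 4.12 to 17.1 reads, counting error only). The fitted value without KO 1, -12.30, depends on the prior count and is no bound. Junction reads, which span a splice site, numbered 159, 245 and 185 in the wild type and 1, 0 and 0 in the knock-out.

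Among the class 4 members, Sema4b and Sema4c were called lower and Sema4a, Sema4d and Sema4g were not called. Sema4b was at 27.3, 21.7 and 25.6 CPM in the knock-out, against 52.3, 58.8 and 55.7 CPM in the wild type (log2 fold change -1.16 ± 0.11, edgeR adjusted p = 0.00204). Sema4c, a ligand of Plxnb2, was at 28.2, 34.2 and 36.2 against 52.4, 48.2 and 51.9 CPM (-0.63 ± 0.11, edgeR adjusted p = 0.0117), and its call was lost without WT 4 or WT 6 (adjusted p up to 0.0616). Neither gene had a knock-out library near the wild-type range. Sema4d, the Plxnb1 ligand also made by lymphocytes, was at 2.90, 0.0471 and 0.213 CPM against 12.3, 11.7 and 13.5 CPM. Its groups lay further apart than those of Sema4b, yet the spread within the knock-out left it uncalled (-3.53 ± 1.15, edgeR adjusted p = 0.0682), and without KO 1 it was called at -6.58. With limma-voom its adjusted p was 0.0157.

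Sema7a, which is anchored to the membrane by a lipid and binds Plxnc1 and beta-1 integrin, was at 2.25, 2.69 and 2.18 CPM against 6.60, 5.14 and 6.44 CPM (-1.35 ± 0.20, edgeR adjusted p = 0.00751). Sema6b was at 1.30, 0.141 and 0.426 CPM against 2.63, 6.91 and 4.17 CPM (-2.85 ± 0.80, edgeR adjusted p = 0.0449). Both are low genes, and for Sema6b the wild-type libraries themselves differed more than 2-fold. The Sema6b call was lost without any single library other than KO 1 (adjusted p up to 0.138), and without KO 1 the change was -4.03. Sema6d, the most abundant class 6 member, was not called (109, 248 and 258 against 128, 105 and 118 CPM; log2 fold change 0.81, edgeR adjusted p = 0.119), and only KO 2 and KO 3 were above the wild type. Sema4f stayed below the filter with 39, 5 and 1 reads in the knock-out, against 3, 8 and 3 in the wild type.

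The summed levels of the mesothelial and pericyte markers separated the genotypes, as did the low sums of the endothelial and leukocyte markers. The sum of the fibroblast markers did not. The leukocyte list (2 of 6 expressed) summed to 1.08 to 2.215 CPM in the knock-out, against 2.87 to 4.325 CPM in the wild type. Its member Cd68 was called lower (edgeR adjusted p = 0.00704), and Csf1r was not called. Of the 12 mesothelial markers 11 were expressed and 10 called lower, where 13.7% of all genes were. The calls of Msln, Wt1, Krt7 and Krt8 were lost without some single libraries (edgeR adjusted p up to 0.122). Msln had 17347, 19648 and 16784 reads in the wild type and 1016, 21 and 26 in the knock-out, and Muc16 had no reads in the knock-out, against 1831 to 3037 in the wild type. The fibroblast list (8 of 8 expressed) summed to 4382, 11880 and 13240 CPM in KO 1, 2 and 3 and to 4589 to 4727 CPM in the wild type. KO 1 thus lay just below the wild type, and KO 2 and KO 3 above it. Of the fibroblast list Pi16 was called higher (log2 fold change 4.95, edgeR adjusted p = 0.00702). It had 120, 452 and 399 reads in the knock-out against 15, 15 and 5. Pdgfra was called higher too (0.50, edgeR adjusted p = 0.0484), a call lost without any single library other than KO 1. The others of that list were not called. Gpm6a of the mesothelial list went another way, with 13463, 957 and 872 reads against 5416 to 6015, and was not called (edgeR adjusted p = 0.914), while Bnc1 was called lower (log2 fold change -0.69 ± 0.09, edgeR adjusted p = 0.00487). The pericyte list (5 of 6 expressed) summed to 386, 1007 and 1051 CPM in KO 1, 2 and 3 and to 226 to 243.5 CPM in the wild type. Most of that sum was Pdgfrb, at 311, 951 and 995 CPM against 180, 192 and 182 CPM. Pdgfrb, Cspg4 and Notch3 were called higher and Kcnj8 lower, where 14.1% and 13.7% of all genes were. The Pdgfrb call was lost without any single library other than KO 1 (edgeR adjusted p up to 0.0920). That of Notch3 was lost without KO 3 or any wild-type library (up to 0.0943). Rgs5 was not called and Abcc9 not tested, although both lay below the wild type in every knock-out library. The part of these cell-type differences in the guidance genes was not tested. In bulk samples fewer cells of a type and less RNA per cell cannot be told apart.

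**Figure D3:**
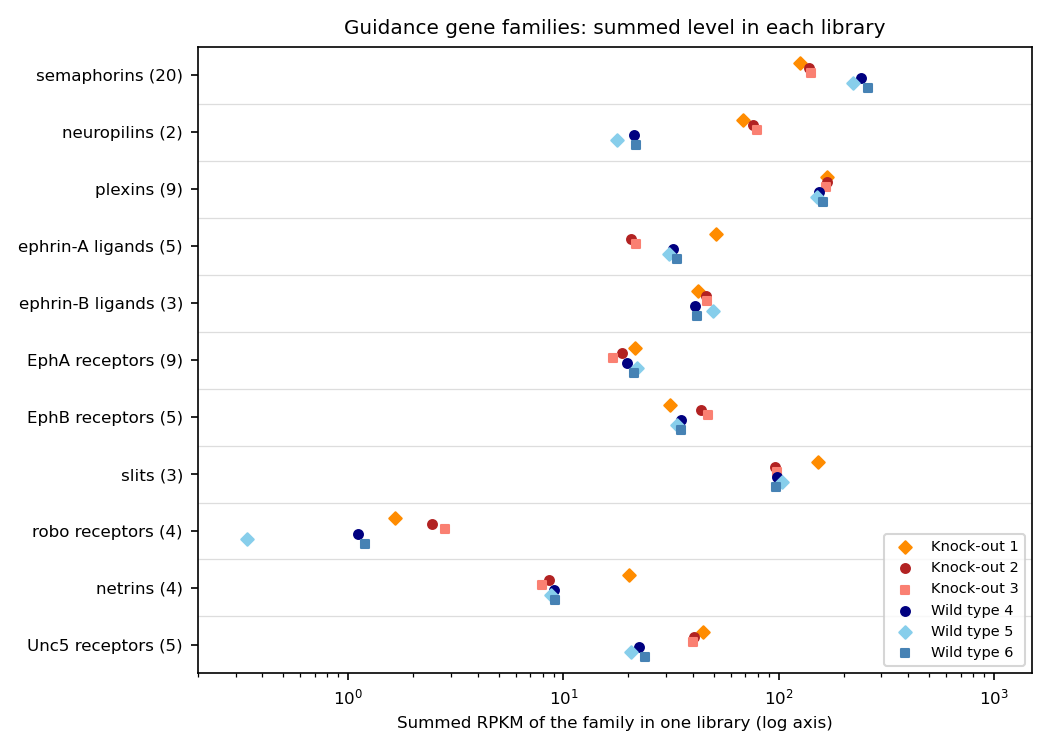
Summed RPKM (log axis) of each guidance family per library, with the number of member genes in brackets. Semaphorins are lower and neuropilins, Unc5 receptors, Robo receptors and, slightly, plexins higher in all 3 knock-out libraries. Slits, netrins and ephrin-A ligands are raised in KO 1 alone.

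Of the co-receptors of the secreted semaphorins, Nrp1 was higher in the knock-out and Nrp2 was not called. Nrp1 (ENSMUSG00000025810, chromosome 8, 128358604 to 128503363, plus strand), which also binds VEGF, was at 257, 296 and 306 CPM in KO 1, 2 and 3 and at 71.0, 57.0 and 73.0 CPM in WT 4, 5 and 6. Every knock-out library stood more than 3-fold above the highest wild-type library. The log2 fold change was 2.10 ± 0.13 (edgeR adjusted p = 0.000722), and the adjusted p stayed at or below 0.00937 without each library in turn. Per exon length it rose from 17.8 ± 2.43 to 71.7 ± 3.38 RPKM (SD, n = 3). Nrp2, the preferred co-receptor of Sema3f, was at 5.24 CPM in KO 1, 48.8 and 49.3 in KO 2 and 3, and 24.04 to 30.26 in the wild type, so its knock-out libraries lay on both sides. Nrp1 made up 84.5% to 89.8% of the neuropilin RPKM in the wild type and 94.6% to 99.3% in the knock-out.

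Plexins had a slightly higher total in the knock-out, without overlap (166 to 167 RPKM, against 151 to 159.8 RPKM in the wild type), while single members moved in both directions. Plxnb2 made up 61.0% to 68.7% of that total. It was at 792, 799.9 and 794 CPM against 666, 661 and 668 CPM, a small and tight difference (log2 fold change 0.26 ± 0.07, edgeR adjusted p = 0.0414). Plxna2, a receptor for class 3 and class 6 semaphorins, was at 129.7, 68.5 and 78.9 CPM against 49.4, 48.6 and 51.8 CPM (0.89 ± 0.24, edgeR adjusted p = 0.0429). Both calls were lost when libraries were scaled by total counts (adjusted p = 0.144 and 0.0774) and without several single libraries (adjusted p up to 0.168 and 0.139). For Plxnb2 these were KO 2, KO 3 and each wild-type library, and for Plxna2 KO 3 and each wild-type library. Plxna1, the most abundant class A plexin, did not pass (240.7, 389 and 379 against 209, 230.3 and 209.9 CPM; 0.64 ± 0.19, edgeR adjusted p = 0.0573).

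Lower in the knock-out were Plxna4, Plxnb1 and Plxnb3, and all of these calls held without each library in turn. Plxna4 (chromosome 6, 32144268 to 32588192, minus strand), a receptor of Sema3a and Sema6a, was at 101, 93.4 and 97.2 CPM against 273.5, 212 and 314.5 CPM (-1.46 ± 0.15, edgeR adjusted p = 0.00296). Plxnb1, the Sema4d receptor, was at 21.6, 20.8 and 20.4 CPM against 40.4, 35.5 and 46.7 CPM (-0.96 ± 0.12, edgeR adjusted p = 0.00430). In both the knock-out libraries lay closer together than the wild-type ones. Plxnb3 (chromosome X, 73757090 to 73772514, plus strand), a receptor of Sema5a, was close to undetected in the knock-out, with 3, 5 and 4 reads against 79, 96 and 102 (-4.37 ± 0.34, edgeR adjusted p = 0.00123). Its junction reads were 2, 3 and 3 against 62, 71 and 68. The Sema7a receptor Plxnc1 stayed below the filter in both genotypes, with 15, 2 and 4 reads against 8, 4 and 5.

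Ligand and receptor pairs thus held members that fell together and members that did not. For Sema6a both known receptors were called, Plxna4 lower and Plxna2 higher. The Sema4d receptor Plxnb1 and the Sema4c receptor Plxnb2 were called in opposite directions, with fold changes of -0.96 and 0.26 on the log2 scale. Sema5a, the ligand of Plxnb3, was not called (184, 115 and 125 CPM against 59.9, 126 and 60.9 CPM), and WT 5 was as high as KO 2 and KO 3. It was called with the last title number as a covariate. Plxnd1, the receptor of Sema3e, was not called either (13.3, 23.9 and 19.9 against 11.9, 24.9 and 13.6 CPM). For Sema3e itself KO 1 lay below the wild type and the other knock-out libraries above it.

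Unc5b (ENSMUSG00000020099, chromosome 10, 60762593 to 60831581, minus strand), a netrin receptor known from vascular sprouts and from signalling cell death when unbound, was higher in the knock-out. It was at 270.4, 268 and 268 CPM in KO 1, 2 and 3 and at 137, 127 and 146 CPM in WT 4, 5 and 6. The knock-out libraries were nearly equal and well above every wild-type library (log2 fold change 0.98 ± 0.08, edgeR adjusted p = 0.00134, at most 0.0177 without any single library). It was the only Unc5 gene above the filter. Unc5a had 28, 10 and 6 reads against 9, 13 and 1, and Unc5c had 45, 1 and 0 against 1, 0 and 4, so the reads of Unc5c came almost wholly from KO 1. Of its ligands, Ntn1 was at 8.87, 10.6 and 11.4 CPM against 6.87, 3.62 and 7.55 CPM and was not called. Ntn4, a netrin of basement membranes, was at 65.9 CPM in KO 1 and between 23.1 and 26.2 CPM in the 5 other libraries. Dcc, the classical netrin receptor, had no reads, and neogenin (Neo1) was called higher (0.39 ± 0.08, edgeR adjusted p = 0.0209), a call lost without any single library other than KO 1 (adjusted p up to 0.104).

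Among Eph receptors 3 of 10 tested were called, near the 27.8% of all genes, and none of the 8 ephrins. Ephb1 (chromosome 9, 101922128 to 102354693, minus strand), a receptor of B-type ephrins, was at 7.14, 57.2 and 65.1 CPM in KO 1, 2 and 3 and at 1.25, 0.658 and 2.46 CPM in WT 4, 5 and 6. KO 2 and KO 3 were far higher than KO 1, which was itself above the wild type (log2 fold change 4.90 ± 0.98, edgeR adjusted p = 0.0174). This call was lost without any single library other than KO 1 (adjusted p up to 0.0836; without WT 6 the change was 5.50) and with limma-voom (adjusted p = 0.176). Epha4, which binds ephrins of both classes, was at 23.1, 36.1 and 40.7 CPM against 18.7, 17.6 and 17.3 CPM (0.90 ± 0.21, edgeR adjusted p = 0.0288). Epha2, the main ephrin-A1 receptor of many epithelia, was lower, at 41.4, 51.0 and 40.4 CPM against 60.4, 68.2 and 67.0 CPM (-0.56 ± 0.11, edgeR adjusted p = 0.0184). The Epha4 call was lost without any single library other than KO 1 (adjusted p up to 0.105), and that of Epha2 without KO 3 or any wild-type library (up to 0.0766).

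The Eph receptors that missed the threshold included some with wide changes. Ephb2 was at 0.952, 0.141 and 0.479 CPM against 2.27, 1.77 and 2.04 CPM (-1.93 ± 0.62, edgeR adjusted p = 0.0660), with no overlap. Without KO 1 it was called (-2.72), and so it was with limma-voom (adjusted p = 0.0378). The arterial ephrin Efnb2 was at 153, 149.8 and 149 CPM against 92.3, 140.4 and 100.4 CPM (0.44, edgeR adjusted p = 0.0989), with WT 5 close to the knock-out. Its venous receptor Ephb4 was at 71.1, 80.8 and 86.4 CPM against 74.8, 76.0 and 76.1 CPM, with the knock-out on both sides of the wild type. Efnb1 was at 39.0, 67.5 and 70.9 CPM against 74.8, 73.5 and 72.8 CPM, with KO 1 far lower than the rest.

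Slits far exceeded their receptors in level. Summed slit RPKM was 96.2 to 153 in the knock-out, against 97.5 to 103 in the wild type. The Robo receptors summed to 1.645, 2.46 and 2.83 RPKM in KO 1, 2 and 3, against 1.11, 0.34 and 1.19 RPKM in WT 4, 5 and 6. Slit3 made up 77.3% to 92.4% of the slit sum. It was at 774, 443 and 463 CPM against 478, 511 and 477.5 CPM (log2 fold change 0.20 ± 0.23, edgeR adjusted p = 0.548), so KO 1 was high and the other knock-out libraries just below the wild type. Slit2 was at 123, 252 and 232 CPM against 107, 114 and 105 CPM, above the wild type in all 3 libraries without passing the test (0.90 ± 0.27, edgeR adjusted p = 0.0538). Robo1, the only expressed receptor, was at 13.3, 22.1 and 25.4 CPM against 8.74, 2.84 and 9.64 CPM (1.52 ± 0.50, edgeR adjusted p = 0.0684). It was called without KO 1 (1.75, adjusted p = 0.0106) and with the last title number as a covariate (adjusted p = 0.00633).

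Of the 36 tested members that were not called, 31 changed by less than 2-fold, with adjusted p from 0.0538 to 0.999. Several of these had knock-out libraries on opposite sides of the wild type. KO 1 lay above and KO 2 and KO 3 below all wild-type libraries for 7 of 52 members (13.5%), namely Slit3, Sema3b, Sema3f, Efna3, Efna5, Epha1 and Epha3, against 9.19% of all genes. The reverse held for another 7 (13.5%), namely Nrp2, Sema3a, Sema3e, Ephb3, Ephb4, Epha7 and Efnb3, against 9.61% of all genes. Epha3, a receptor of ephrin-A ligands, was at 41.7 CPM in KO 1, 4.53 and 4.68 in KO 2 and 3, and 5.66, 8.47 and 5.47 in the wild type (1.38 ± 0.93, edgeR adjusted p = 0.304). Without KO 1 its change was -0.51, so the sign rested on that library. Sema3b was at 22.1, 1.84 and 1.38 CPM against 8.65, 15.5 and 7.46 CPM, and Sema3f at 162, 84.5 and 82.9 against 96.3, 88.9 and 98.5 CPM. Efna5 was at 150.3, 34.1 and 36.4 CPM against 56.9, 53.9 and 61.9 CPM. For the repulsive ligand Sema3a the order was the reverse, at 23.1, 67.9 and 75.2 CPM against 41.1, 61.4 and 48.5 CPM. Genotype means of these genes therefore average libraries that disagree.

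**Figure D4:**
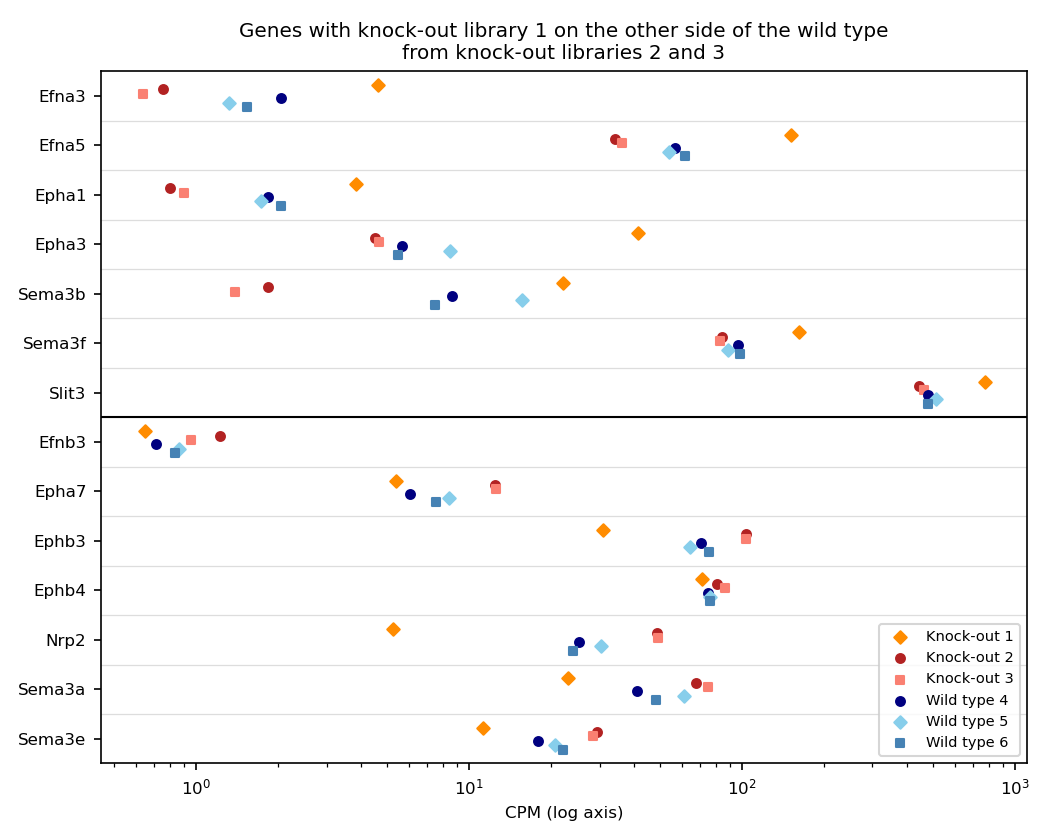
CPM (log axis) per library of the 14 guidance genes for which KO 1 and the pair KO 2 and KO 3 lie on opposite sides of all wild-type libraries. The upper 7 genes have KO 1 (orange) to the right, the lower 7 to the left.

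Members that lie beside each other on a chromosome did not always share a pattern. Sema3d, Sema3a and Sema3e lie in a row on chromosome 5 with gaps of 536.5 kb and 423 kb, and Sema3c follows after 3.32 Mb. The outer pair lay below the wild type in every knock-out library, whereas the inner pair had only KO 1 below it. Sema3b and Sema3f, 72.3 kb apart on chromosome 9, shared the pattern of a high KO 1. On the X chromosome Plxnb3 and Plxna3 lie 557 kb apart. Plxna3 was at 31.0, 42.6 and 41.4 CPM against 30.8, 28.9 and 33.3 CPM, beside a near absence of Plxnb3 in the knock-out.

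Intron reads gave a readout that had not entered the test on exon reads, although it comes from the same libraries. Members had 2183 to 2424 intron reads per library in sum, and 37 could be tested. Of these 8 were called (4 higher and 4 lower), against 12% of all 10653 genes tested on introns. Among the 12 of the 37 that were called on exon reads, 7 were called on intron reads with the same sign. Nrp1 had 263, 275 and 251 intron reads against 68, 80 and 88 (log2 fold change 1.75 ± 0.15, edgeR adjusted p = 0.000317). Sema3d had 20, 16 and 8 against 160, 126 and 152 (-3.30 ± 0.30, edgeR adjusted p = 0.000323), a lower level in KO 1 than its exon reads gave. The introns of Sema6a held 0, 1 and 0 reads against 46, 59 and 42 (-6.74, edgeR adjusted p = 0.000264). Also called were Unc5b (0.83 ± 0.21), Plxna2 (0.81 ± 0.22), Plxna4 (-2.17 ± 0.46) and Ephb1 (3.61 ± 0.74). Sema3c was called on intron reads alone, with 28, 89 and 82 against 227, 178 and 248 (-1.74 ± 0.32, edgeR adjusted p = 0.00999). Epha2, Sema4b, Sema4c, Plxnb1 and Plxnb2 were called on exon reads alone, and the difference between the readouts was not tested.

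**Figure D5:**
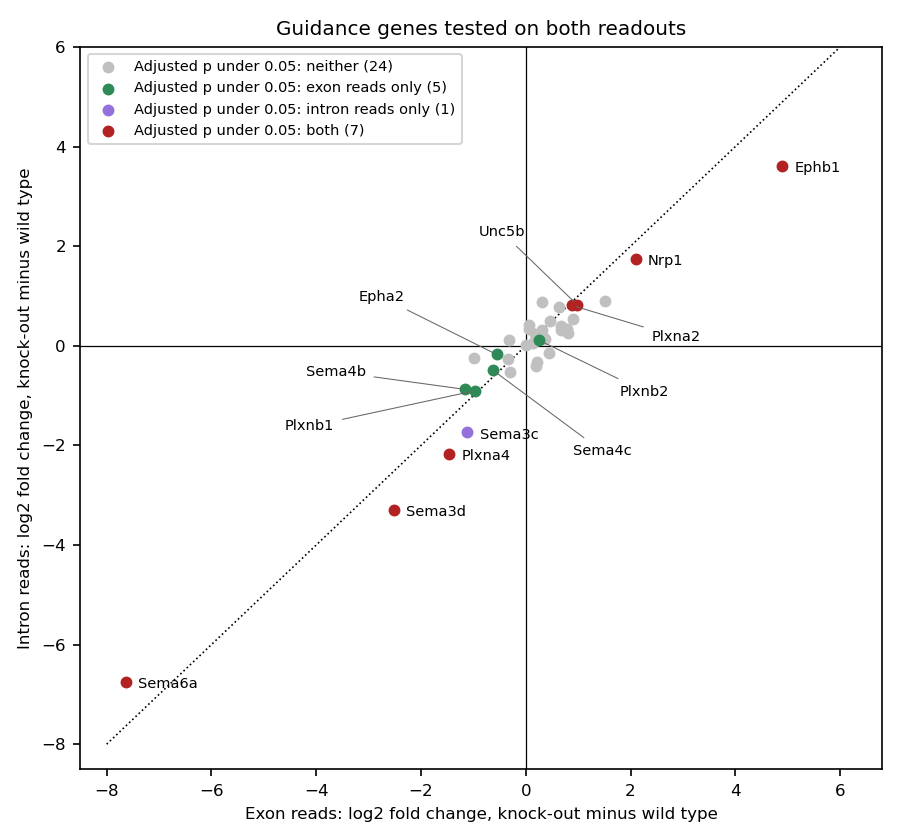
Log2 fold change (knock-out minus wild type) on exon reads (horizontal) and intron reads (vertical) for the 37 guidance genes tested on both, coloured by which readout gave an adjusted p under 0.05. The dotted line marks equal change. The 7 genes called on both lie in the same quadrant on each axis.

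The pathway partners, co-receptors and cytoplasmic effectors of these receptors, were taken from a list of 93 genes, of which 79 were tested. Higher in the knock-out were 18 and lower 11, where 14.1% and 13.7% of all genes were. Together these were 29 of 79, against 27.8% of all genes. By list, 10 of 29 tested semaphorin co-receptors and effectors were higher and 3 lower. Eph and ephrin effectors had 2 higher and 5 lower of 20, slit and Robo effectors 2 higher and 1 lower of 15, netrin and repulsive guidance genes 3 higher and 2 lower of 9, and Unc5 effectors 1 higher of 6. Dpysl2 (CRMP2), a tubulin-binding mediator of Sema3a signalling, was at 50.04, 60.99 and 60.23 CPM against 10.9, 12.2 and 10.6 CPM (2.35 ± 0.12, edgeR adjusted p = 0.000414). Mical1, an actin-oxidising enzyme that acts downstream of plexins, was at 42.2, 53.2 and 53.3 CPM against 18.7, 18.5 and 18.7 CPM (1.41 ± 0.11, edgeR adjusted p = 0.00134). Dapk1, a death-associated kinase that binds Unc5b, was at 159, 181 and 186 CPM against 78.1, 80.3 and 74.3 CPM (1.18 ± 0.09, edgeR adjusted p = 0.00111). In each of these the 3 knock-out libraries were high together, above a tight wild type. Itgb1, the beta-1 integrin that Sema7a binds, was also higher (0.68 ± 0.08, edgeR adjusted p = 0.0043).

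Among the falls, Chl1, an L1-family adhesion molecule that can join neuropilin in the Sema3a receptor, had the largest change of the 4 named. It was at 2.21, 1.74 and 0.851 CPM against 246, 129 and 168 CPM (-6.80 ± 0.44, edgeR adjusted p = 0.000763). The beta-chimaerin gene Chn2, a Rac inhibitor downstream of Eph receptors and plexins, was at 43.5, 47.0 and 45.2 CPM against 67.9, 57.3 and 70.8 CPM (-0.53 ± 0.10, edgeR adjusted p = 0.0137). Flrt3, a membrane ligand of Unc5b, was at 0.649, 0.330 and 0.851 CPM against 3.30, 2.14 and 3.06 CPM (-2.21 ± 0.42, edgeR adjusted p = 0.0147). The kinase Src was lower by less (-0.30 ± 0.06, edgeR adjusted p = 0.0185). The calls of Chn2, Flrt3 and Src were lost when some single libraries were left out (adjusted p up to 0.0698, 0.0713 and 0.0881). None of the partners was called with the nearly identical libraries summed (edgeR, 0 of 80 tested, with 23 at an unadjusted p under 0.05). For that count of 23 the share of all genes was not determined.

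Counting overlaps limits a few low members. Epha1 lies across from Zyx on the opposite strand (74364 reads against its own 250), and Ntn3 shares its strand and locus with Tbc1d24 (6940 against 1113). Because the handling of strand in the counting is not given in the sources used here, exon reads of such partners cannot be told apart. Junction reads of Epha1 were 56.2%, 17.65% and 5.88% of its exon reads in KO 1, 2 and 3. In WT 4, 5 and 6 they were 61.0%, 66.7% and 52.3%. Whether reads of Zyx entered the Epha1 count was not tested. For the tested members 98.8% to 100% of exon reads were unique.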

How the data were processed

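RNA was measured in 6 libraries (3 Nt5e knock-out, 3 wild type, grouped by the labels' genotype). The authors deposited 1 table of whole-number read counts per gene and library (exon, unique exon, junction and intron reads) and an RPKM value, reads scaled by exon length and depth, per the file headers. Gene coordinates are on GRCm38, or mm10, as named in the submitters' processing notes, with the aligner, counter and strand setting not given in the sources used here. RPKM served to compare levels between genes and, for family sums and some single genes, also between libraries. It did not carry the TMM scaling described below and entered no test.

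Exon and intron reads were each tested over all genes with edgeR 4.0.16 in R 4.3.3 (filterByExpr with a minimum count of 10, TMM, quasi-likelihood F test, genotype as the only term, Benjamini-Hochberg at 0.05). CPM use the TMM-adjusted library size, and the SE is the log2 fold change divided by the square root of F. Alternatives were DESeq2 1.42.0, limma-voom (limma 3.58.1), DESeq2 size factors, total counts, unique exon reads, no filter on low genes, 50 reads required in 3 libraries, the last title number as a covariate, libraries with titles ending in 2, nearly identical libraries summed, and leaving out each library. Values in every library are given for called members, the 12 of highest mean RPKM, uncalled members of at least 2-fold, members under the filter with 10 reads in a library, and up to 4 rises and 4 falls of partners. Some other members were named after their values were seen. Members and lists were chosen with earlier results of these data known. The edgeR script was tested on simulated data with independent libraries and a common dispersion. Libraries here were unequally spaced, so that test does not cover how the calls behave under such spacing. RefSeq promoter entries existed for 60 of 69 members. Figures used matplotlib 3.10.9.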

Additional observations from a re-analysis of the deposited data

How the results depend on the processing

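The 16 calls on exon reads became 44 with the 4 libraries whose titles end in 2, where 73% of all genes were called. They became 0 with the nearly identical libraries summed (0.13% of all genes) and 8 to 41 when 1 library was left out. These were 8 without WT 4 or WT 6 (8.71% and 10.8% of all genes) and 41 without KO 1 (66.2%). Other settings gave 14 to 24 calls, where 19.9% to 37.0% of all genes were called, so the share of all genes moved as well. The 8 intron calls became 4 of 15 tested with the 50-read filter (15.4% of all genes) and 19 with titles ending in 2 (33.2%). With 1 library left out they were 3 to 22, namely 3 without WT 4 (4.68% of all genes) and 22 without KO 1 (32.5%). The 29 partner calls became 66, 0 and 6 to 61 in the same order as for exon reads (6 without WT 4, 61 without KO 1). The shares of all genes given for the exon reads hold for these settings too. The count of expressed members stayed within 1.5 times. With titles ending in 2 and without KO 1 the log2 fold change turned for Epha3 (-0.29, -0.51), Sema3f (-0.23, -0.18) and Slit3 (-0.0889, -0.12). In both settings it also turned for Efna3 (-1.36, -1.22), Efna5 (-0.76, -0.71), Ephb6 (-0.15, -0.19) and Sema4a (0.49, 0.15). With 1 library left out the highest values of Epha3, Sema3f and Slit3 were 1.83, 0.38 and 0.34. With total counts the change turned for Ephb4 (-0.0285) and Ephb6 (-0.0148). The cause was not tested. Members under the filter rest on at most 45 reads per library, which limits what they can show. Summing leaves 2 libraries per genotype. The labels number the replicates 1 to 3 and 4 to 6, so no number pairs them. The last title number, whose meaning is not given, entered as a covariate, and 23 members were then called.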
